A study of Saccharomyces cerevisiae with 32 samples.

Results

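The response of tif1-ts cells to a shift from 30 °C to 37 °C was examined gene by gene, in messenger RNA (mRNA) and in ribosome footprints. tif1-ts is a budding yeast (Saccharomyces cerevisiae) strain with a temperature-sensitive allele of TIF1, which encodes the translation initiation factor eIF4A. For each gene the log2 level at 30 °C was subtracted from that at 37 °C in the same assay. Each difference was then centred on its median over the 4917 genes with no value that stood for 0 reads. A gene was retained when its abundance, averaged over both temperatures, was at least 100 in both assays, and 2666 of 4921 genes (54.18%) met this rule. The least abundant gene retained was BCH2, at 100.15 in its weaker assay, and the most abundant gene left out was CAC2, at 99.97.

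The 32 samples of the series came from mutants of the RNA helicases Ded1 and eIF4A and from their wild types, in 16 groups of 2 replicates. The tif1-ts cells (NSY21) gave 4 groups, footprints and mRNA at 30 °C and at 37 °C, with 2 labelled replicates each, and wild-type TIF1 cells (NSY20) gave the same 4 groups. Cultures were grown in synthetic complete medium to an OD600 near 0.7 and shifted in temperature, and 2 min before harvest both strains at both temperatures received 100 µg/ml of cycloheximide. The labels name the allele and the strain only. The sources used here give neither other alleles in these strains nor the time spent at 37 °C.

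eIF4A is a DEAD-box RNA helicase that helps the small ribosomal subunit load onto the capped end of an mRNA and clear structure from its leader. Yeast makes it from TIF1 and from its near-identical copy TIF2. When yeast is moved to heat, the transcription factor Hsf1 induces chaperones and the factors Msn2 and Msn4 induce general stress genes, while genes for making ribosomes are repressed for a time. Translational efficiency (TE) relates the footprints of a gene to its mRNA, so a TE change is the footprint change minus the mRNA change.

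The deposited tables hold 1 value per group rather than 1 per replicate. Thus no difference below has a replicate check or a p-value, and "higher" and "lower" describe these libraries. Temperature cannot be told apart from table, since the 30 °C and 37 °C libraries were labelled as separate experiments and normalized in separate tables. All changes are log2 values of 37 °C over 30 °C relative to the median gene, and they say nothing of total translation. Footprint depth was estimated by taking the lowest value above 0 reads as 1 read. It was 4.717 M reads for tif1-ts at 30 °C and 3.88 M at 37 °C, against 5.667 and 11.829 M for the wild type. The counting error of a footprint change in tif1-ts had a median SE of 0.1026 over the retained genes and reached at most 0.2015. Levels of mRNA were printed to 1 decimal, so an mRNA or TE change can be off by 0.1 from rounding alone, and mRNA depth is unknown.

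TIF1 itself was not analysed here, so the mutated gene could not be used to check the labels. In tif1-ts, TIF2 (YJL138C) went from a footprint level of 13.62 to 13.30 and from an mRNA level of 11.7 to 11.4. Its TE change was -0.01 in tif1-ts and 0.00 in the wild type. Reads of TIF2 and TIF1 may not be separable.

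Few genes changed by 2-fold or more, and the counts in both directions were similar. mRNA was at least 2-fold higher for 56 of the 2666 genes (2.1%) and at least 2-fold lower for 53 (1.99%). Footprints were at least 2-fold higher for 87 (3.26%) and lower for 95 (3.56%). TE was at least 2-fold higher for 53 (1.99%) and lower for 37 (1.39%). The SD across genes was 0.43 for mRNA, 0.56 for footprints and 0.45 for TE. The split of higher against lower depended on the centre. Centred on the median of the retained genes, which lay at -0.10 for mRNA and -0.14 for footprints, 67 mRNAs were higher and 41 lower, and 122 genes had higher footprints and 61 lower. The counts also depended on the abundance floor, and with a floor of 10 in place of 100, 189 genes had at least 2-fold higher TE and 74 lower. The floor applied to the mean of both temperatures, so a gene could pass it through a high level at 1 temperature. With the floor on the lower level, 38 genes had at least 2-fold higher TE and 29 lower. Printed rounding also mattered at the threshold, as 28 mRNA changes stood at exactly 2-fold, and 40 were higher and 41 lower by a log2 change of 1.1 or more.

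The genes with more footprints were divided between those with more mRNA and those with a higher TE. Of the 87 genes with at least 2-fold more footprints, 34 had at least 2-fold more mRNA and 31 at least 2-fold higher TE; 2 of these had both, and 24 had neither. Of the 95 with at least 2-fold fewer footprints, 32 had mRNA that much lower and 18 had TE that much lower, 2 of them both, and 47 neither. TE and mRNA changes share the same mRNA values, so an error in mRNA moves them in opposite directions. Of the 53 genes with higher TE, 26 had mRNA below the median gene and 5 had mRNA at least 2-fold lower.

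**Figure D1:**
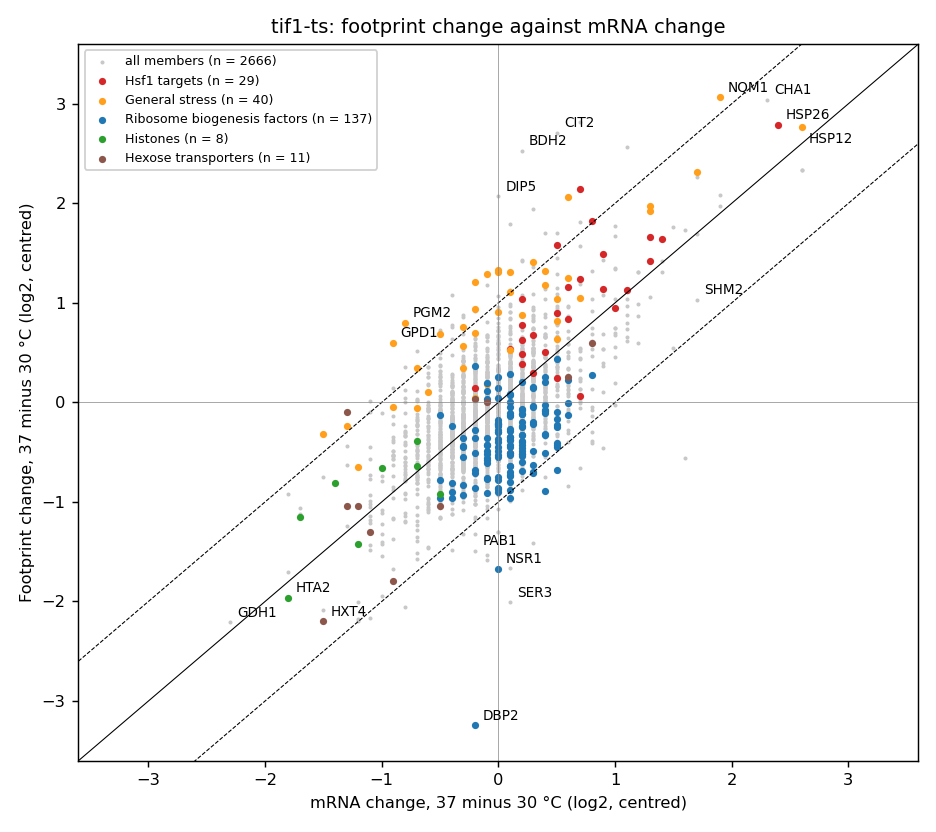
Centred log2 change from 30 to 37 °C in tif1-ts of mRNA (horizontal) and footprints (vertical) for the 2666 retained genes (grey), with 5 gene lists coloured. The solid diagonal marks equal change and the dashed diagonals a 2-fold change of TE; general stress genes lie above the solid diagonal, and DBP2 lies far below it at -3.24 in footprints with an mRNA change of -0.2.

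Chaperones had more mRNA and more footprints at 37 °C. Hsf1 induces many of these genes, whose products fold nascent proteins and refold damaged ones. Of 29 measured genes of the chaperone list, 27 had mRNA above the median gene, 6 of them at least 2-fold, and none was 2-fold lower. Footprints were at least 2-fold higher for 13 and TE for 3, and the median changes were 0.50 for mRNA, 0.90 for footprints and 0.34 for TE. Over all retained genes these medians were -0.10, -0.14 and -0.06, and 52.8% had mRNA below the median gene. Changes of at least 2-fold higher made up 2.1% of them in mRNA, 3.26% in footprints and 1.99% in TE.

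HSP26 (YBR072W), a small heat-shock protein that binds unfolded proteins, went from an mRNA level of 5.4 to 7.8 and a footprint level of 8.11 to 10.89. Its changes were 2.4 in mRNA and 2.79 in footprints, with a counting SE of 0.073, against 2.1 and 2.27 in the wild type. HSP104 (YLL026W), the disaggregase that pulls proteins out of aggregates, went from 9.4 to 9.9 in mRNA and from 10.29 to 11.86 in footprints. Its TE change was therefore 1.08, with 0.97 in the wild type. The other members with TE past 2-fold were the inducible Hsp70 gene SSA4 (YER103W), at 1.44, and HSP78 (YDR258C), the mitochondrial disaggregase, at 1.02. For AHA1 (1.4), a cochaperone of Hsp90, and for HSP82 (1.3), the inducible Hsp90, the change was mostly in mRNA, with TE changes of 0.24 and 0.36. The wild-type medians of the chaperone list were 0.50 for mRNA, 0.995 for footprints and 0.43 for TE, and 14 genes had at least 2-fold more footprints. The folding enzymes of the endoplasmic reticulum stayed near the median gene in tif1-ts, with medians of 0.00 for mRNA and -0.06 for TE over 13 genes and no change of 2-fold.

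General stress genes had higher TE, with mRNA at the level of the median gene. The list holds targets of Msn2 and Msn4 and the enzymes that make and break trehalose and glycogen, the storage sugars of yeast. All 40 of its measured members had a TE change above 0, 17 of them at least 2-fold, while the median mRNA change was 0.00. Of all retained genes, 55.6% had a TE change below 0 and 1.99% had at least 2-fold higher TE. The median TE change of the list was 0.885 and its median footprint change 0.895, and 18 members had at least 2-fold more footprints. mRNA was at least 2-fold higher for 5 members and lower for 3. Among all retained genes, 3.26% had at least 2-fold more footprints, and mRNA was that much higher for 2.1% and lower for 1.99%. The wild-type median TE change was 0.66, with 38 of the same 40 genes above 0 and 7 at least 2-fold higher.

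HSP12 (YFL014W), a membrane-protecting stress protein, had the highest mRNA change beside CUP1, from a level of 8.4 to 11, and its footprints went from 10.12 to 12.88. Its TE change was only 0.17. NQM1 (YGR043C), a transaldolase paralog, had the highest footprint change of all named genes, 3.07, from 5.85 to 8.91, with mRNA from 5.7 to 7.6. DDR2 (YOL052C-A), another stress-induced gene, changed by 1.7 in mRNA and by 2.31 in footprints. Other members had lower mRNA and a higher TE. PGM2 (YMR105C), the major phosphoglucomutase, went from 7.9 to 7.1 in mRNA and from 8.22 to 9.01 in footprints, a TE change of 1.60. GPD1 (YDL022W), which makes glycerol 3-phosphate, went from 8.6 to 7.7 in mRNA and from 10.39 to 10.98 in footprints, a TE change of 1.5. HXK1 (YFR053C), a hexokinase, had an mRNA change of -1.5 beside a footprint change of -0.32. The trehalose synthesis genes TPS1, TPS2 and TSL1 had TE changes of 1.14, 1.19 and 1.41, with mRNA changes of -0.2, -0.5 and -0.2. The catalase gene CTT1 had a TE change of 1.31 with an mRNA change of 0.0.

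Glycolysis followed the same direction at a smaller size. Of 25 measured genes of glycolysis and ethanol fermentation, 21 had TE above 0, with a median of 0.50 and 2 past 2-fold. Of all retained genes, 55.6% had TE below 0 and 1.99% had at least 2-fold higher TE. The median mRNA change of the list was 0.00, and its wild-type median TE change was 0.18. PGK1, ADH1 and TDH3, which encode abundant enzymes of the pathway, had TE changes of 0.66, 0.63 and 0.54. GCR1 (YPL075W), the transcription factor that drives glycolytic genes, had one of 0.92, from a footprint level of 6.13 to 7.04 with mRNA unchanged at 7.6 as printed. Its wild-type TE change was 0.02.

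**Figure D2:**
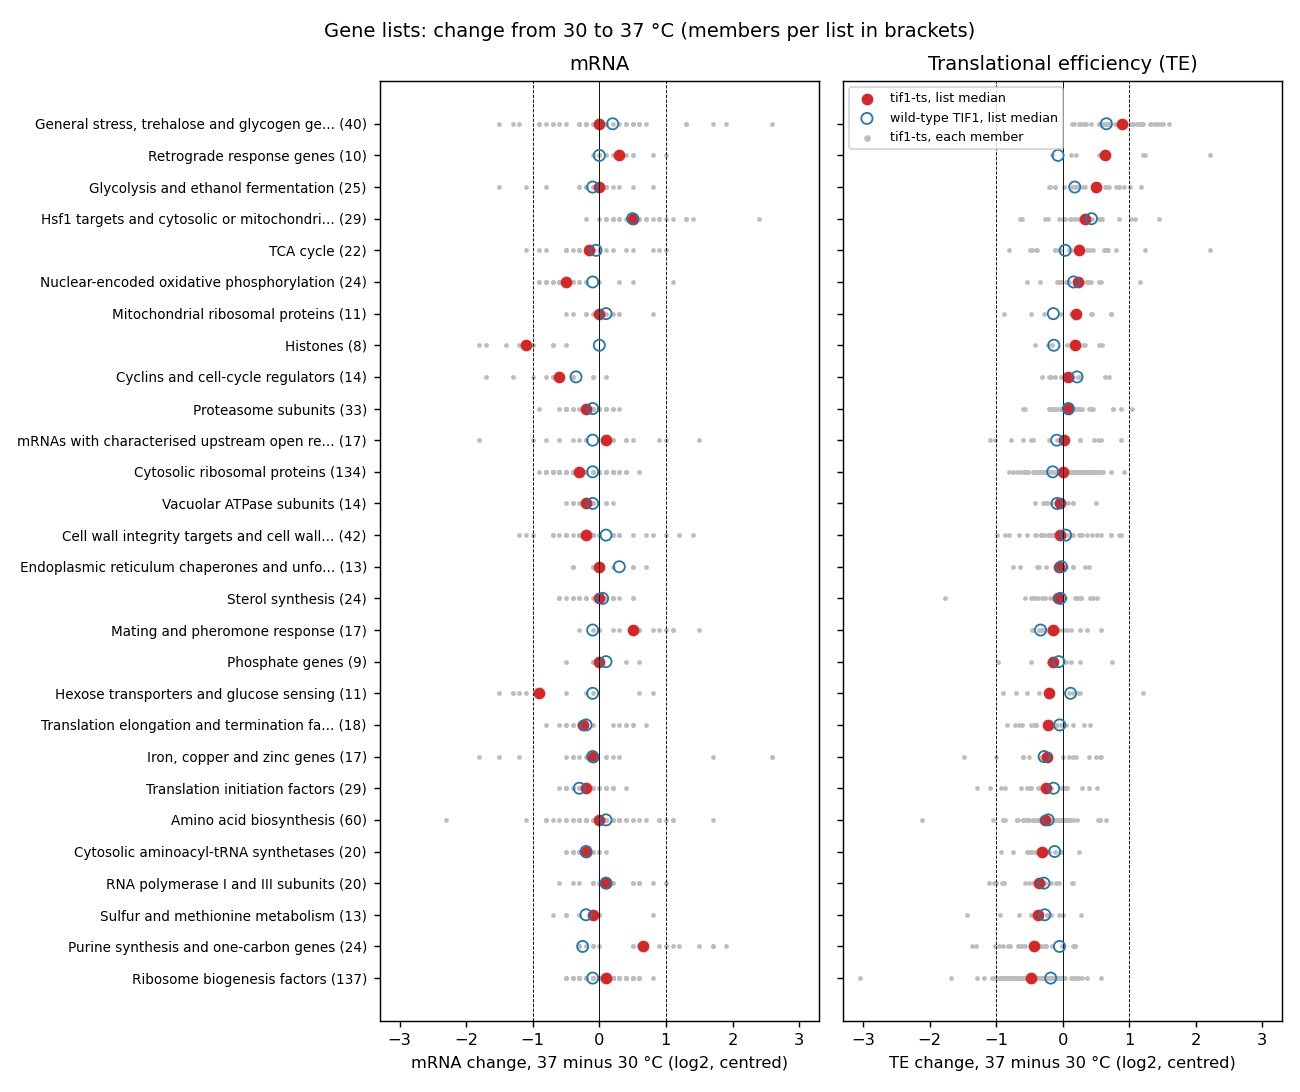
Centred log2 change of mRNA (left) and TE (right) from 30 to 37 °C for 28 gene lists, with each tif1-ts gene (grey), the tif1-ts median (red) and the wild-type TIF1 median over the same genes (open blue), and dashed lines at 2-fold. General stress genes have the highest median TE change in tif1-ts, 0.885, ribosome biogenesis factors the lowest, -0.48, and histones the lowest median mRNA change, -1.1.

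Sugar uptake genes had less mRNA and fewer footprints. Of 11 measured genes for hexose transport and glucose sensing, 5 had mRNA and 6 had footprints at least 2-fold lower, with medians of -0.90 and -1.04. The shares among all retained genes were 1.99% for mRNA and 3.56% for footprints. None of the 11 was 2-fold lower or higher in mRNA or footprints in the wild type, where the medians were -0.10 and 0.09. HXT4 (YHR092C), a high-affinity glucose transporter, went from 9.0 to 7.5 in mRNA and from 9.76 to 7.55 in footprints in tif1-ts. In the wild type it went from 7.0 to 7.2 in mRNA and from 7.95 to 8.27 in footprints, so the tif1-ts level stood higher at 30 °C and nearer to the wild type at 37 °C. HXT3 (YDR345C), a low-affinity transporter, went from 11.78 to 9.98 in footprints and from 11.2 to 10.3 in mRNA. HXK2 (YGL253W), the main hexokinase in glucose and a part of glucose repression, had changes of -1.1 in mRNA and -1.30 in footprints. HXT1, a low-affinity transporter, had an mRNA change of 0.8. HXT transporters are close relatives, HXT6 and HXT7 above all. The sources used here do not say how reads that match several genes were counted, so values of single HXT genes are uncertain. HXT6 and HXT7 were both at least 2-fold lower in mRNA and footprints, so these counts may hold 1 signal 2 times.

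Histone mRNAs were lower in tif1-ts at 37 °C. All 8 measured histone genes were below the median gene in mRNA and in footprints, with medians of -1.10 and -0.865, and 5 mRNAs were at least 2-fold lower. Of all retained genes, 52.8% were below it in mRNA and 61.3% in footprints, and 1.99% had mRNA at least 2-fold lower. HTA2 (YBL003C), which encodes histone H2A, went from 8.9 to 7.1 in mRNA and from 9.13 to 7.16 in footprints. The wild-type levels of HTA2 were 10.1 and 10 in mRNA and 10.14 and 9.91 in footprints. The tif1-ts levels were thus below the wild-type ones at both temperatures, and further below at 37 °C. HHF1 (YBR009C) and HHF2 (YNL030W), the histone H4 genes, had mRNA changes of -1.7 and -1.4 against -0.1 and 0.0 in the wild type. Copies of a histone gene are near-identical, so their reads cannot be assigned to 1 copy with certainty.

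Genes of the cell cycle also had less mRNA in tif1-ts at 37 °C. Of 14 measured cyclins and regulators, 13 had mRNA below the median gene, against 52.8% of all retained genes. The list median was -0.60, and 3 members were at least 2-fold lower, against 1.99% of all retained genes. In the wild type 12 of the 14 had mRNA below the median gene, as did 50.4% of all retained genes. The wild-type median was -0.35, with 2 at least 2-fold lower. At an abundance floor of 500 the tif1-ts median was 0.1, which was the value of EGT2 alone. RNR1 (YER070W), the large subunit of ribonucleotide reductase that peaks at the start of S phase, went from 9.2 to 7.5 in mRNA and from 10.40 to 9.33 in footprints. Its wild-type mRNA change was -0.4. The mitotic cyclin CLB2 (YPR119W) went from 7.5 to 6.2 in tif1-ts and from 7.7 to 6.0 in the wild type. In whole cultures, fewer cells in S phase and less histone mRNA per cell cannot be told apart.

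Genes of purine synthesis and one-carbon metabolism had more mRNA but lower TE in tif1-ts. This list of 24 measured genes was added after the values were seen, and so its counts describe genes already noticed. mRNA was at least 2-fold higher for 8 and none was that much lower, with a median of 0.65. The median TE change was -0.435, and 3 were at least 2-fold lower in TE. Among all retained genes, 2.1% had mRNA at least 2-fold higher and 1.39% had TE that much lower. The wild-type medians of the list were -0.25 for mRNA and -0.05 for TE. SHM2 (YLR058C), the cytosolic serine hydroxymethyltransferase, went from 10.3 to 12 in mRNA and from 11.35 to 12.37 in footprints. Its wild-type mRNA went from 10.9 to 10.6. GCV1 (YDR019C), a subunit of the glycine cleavage complex, went from 8.9 to 10.8 in mRNA and from 8.91 to 10.98 in footprints, with a wild-type mRNA change of 0.0. ADE17 (YMR120C), which acts in the last steps of inosine monophosphate synthesis, went from 9.0 to 10.7 in tif1-ts mRNA and from 10.2 to 9.2 in the wild type. AAH1 (YNL141W), adenine deaminase, and MIS1 (YBR084W), a mitochondrial folate enzyme, had TE changes of -1.36 and -1.30, against -1.15 and -0.51 in the wild type.

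Lower mRNA of other metabolic genes was led by GDH1 (YOR375C), the glutamate dehydrogenase used for ammonium assimilation. GDH1 went from 9.9 to 7.6 in mRNA and from 11.51 to 9.29 in footprints, and its wild-type mRNA change was -1.0. CHA1 (YCL064C), the serine and threonine deaminase, moved the other way, from 7.1 to 9.4 in mRNA and from 7.01 to 10.04 in footprints. Its mRNA change in the wild type was 1.2. HAP4 (YKL109W), the activator of respiratory genes, had an mRNA change of -1.8 in tif1-ts and -1.5 in the wild type. Of 24 measured nuclear genes of oxidative phosphorylation, 20 had mRNA below the median gene, against 52.8% of all retained genes. The list median was -0.50 in tif1-ts and -0.10 in the wild type. In tif1-ts 1 of the 24 (COX5B) was at least 2-fold higher and none that much lower, against 2.1% and 1.99% of all retained genes.

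Higher TE was also found for genes of mitochondrial retrograde signalling, the pathway by which yeast with weak respiration raises the supply of citrate and glutamate. CIT2 (YCR005C), the peroxisomal citrate synthase and the classic target of that pathway, had footprints of 8.65 at 30 °C and 11.35 at 37 °C. Its mRNA levels were 11.6 and 12.1, which gave a TE change of 2.21. Wild-type CIT2 footprints were 9.08 and 8.72 and mRNA levels 11 and 11.2, a TE change of -0.54. DLD3 (YEL071W), which converts 2-hydroxyglutarate, had a TE change of 1.2 against -0.30 in the wild type. CIT1 (YNR001C), the mitochondrial citrate synthase, had one of 1.23 against 0.11. A retrograde list of 10 measured genes was also added after the values were seen, so its counts too describe genes already noticed. Of these 10, 9 had TE above 0, with a median of 0.63 and 3 of them past 2-fold. The wild-type median of the list was -0.07. Among all retained genes, 55.6% had a tif1-ts TE change below 0 and 1.99% had at least 2-fold higher TE.

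Other high TE changes belonged to genes of diverse function. BDH2 (YAL061W), a relative of butanediol dehydrogenase, led the TE changes of named genes at 2.33, from a footprint level of 5.26 to 7.78 with a counting SE of 0.198. DPI8 (YJL133C-A), at 2.12, went from 6.79 to 9.60 in footprints, and its wild-type TE change was 0.26. DIP5 (YPL265W), the permease for dicarboxylic amino acids, went from 8.4 to 10.46 in footprints with mRNA at 9.4 at both temperatures. Its wild-type TE change was 1.02. ICY1 (1.69), SPO24 (1.64), the carbonic anhydrase NCE103 (1.48) and the aldo-keto reductase GCY1 (1.47) completed the 10 highest with PGM2 and GPD1. At 30 °C the footprint levels of ICY1 and GCY1 also lay under the floor, at 5.61 and 6.26.

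Ribosome biogenesis factors had lower TE in tif1-ts at 37 °C without lower mRNA. These proteins process ribosomal RNA and assemble the subunits in the nucleolus. Of 137 measured factors, 126 had a TE change below 0, with a median of -0.48, as did 55.6% of all retained genes. TE was at least 2-fold lower for 7 of the factors and that much higher for none, against 1.39% and 1.99% of all retained genes. The median mRNA change was 0.10 and none was 2-fold lower in mRNA. For the wild type the median TE change was -0.18 and 88 factors were below 0, as were 51.1% of all retained genes. In the wild type 11 factors had mRNA at least 2-fold lower, against 3% of all retained genes. Median footprint changes of the list were nearer to each other, -0.38 in tif1-ts and -0.305 in the wild type.

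DBP2 (YNL112W), an RNA helicase of RNA decay and ribosome assembly, had the lowest footprint and TE changes of the named genes. Its footprints went from 9.78 to 6.53 with mRNA at 9.1 and 8.9, a TE change of -3.04, and in the wild type from 10.04 to 8.41 with mRNA at 8.6 at both temperatures, a TE change of -1.61. NSR1 (YGR159C), the nucleolin-like protein, had TE changes of -1.67 in tif1-ts and -1.51 in the wild type. BRX1 (YOL077C), which acts on the large subunit, had values of -1.29 and -0.13. RNA polymerase I and III subunits, which make ribosomal and transfer RNA, had a median TE change of -0.355 over 20 genes in tif1-ts. TE was at least 2-fold lower for 3 of the 20, against 1.39% of all retained genes. None of the 20 was that much lower in the wild type, where the median was -0.28. RPC37 (YKR025W) was the lowest of them at -1.10, with mRNA going from 7.2 to 8.0 and footprints from 7.04 to 6.73.

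Cytosolic ribosomal protein genes had less mRNA and fewer footprints, as did abundant genes at large. Over 134 measured genes the medians were -0.30 for both, and the median TE change was 0.01, with no gene past 2-fold in any of the 3 quantities. Of these genes, 130 lay in the most abundant of 5 equal groups by mRNA level, where all genes together had medians of -0.2 for mRNA and -0.30 for footprints. Wild-type medians were -0.10 for mRNA, -0.268 for footprints and -0.15 for TE. Footprint changes were below 0 for 118 of the 134 genes in tif1-ts and for 127 in the wild type. The shares among all retained genes were 61.3% and 59.1%. Most ribosomal proteins are encoded by pairs of near-identical genes, whose reads cannot always be assigned to 1 copy.

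Factors of translation itself had fewer footprints. Of 29 measured initiation factors, 25 had footprint changes below 0, as did 61.3% of all retained genes. Their median was -0.43, and the median TE change was -0.25. In the wild type 28 of the 29 were below 0, with a median of -0.314. PAB1 (YER165W), the poly(A)-binding protein, went from 11.24 to 9.74 in tif1-ts footprints, with mRNA of 9.4 and 9.2. The wild-type mRNA levels were the same as printed, 9.4 and 9.2, and its footprints went from 11.79 to 11.17. The TE change of PAB1 was -1.29 in tif1-ts and -0.40 in the wild type. TIF4631 (YGR162W), which encodes the scaffold eIF4G that binds eIF4A, had TE changes of -1.09 and -0.84. DED1 (YOR204W), the other initiation helicase, had TE changes of -0.93 and -0.81. TIF3, which encodes eIF4B, the RNA-binding partner of eIF4A, had TE changes of -0.87 and -0.61. All 20 measured aminoacyl-tRNA synthetases and their cofactors had footprint changes below 0, with a median of -0.605 in tif1-ts and -0.33 in the wild type. The lowest of them was ALA1 (YOR335C), the alanyl-tRNA synthetase, at -0.93 with an mRNA change of 0.0.

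GCN4 (YEL009C), the transcription factor of amino acid starvation that is translated through upstream open reading frames, was too low in footprints to be retained. Its footprints were 6.33 at 30 °C and 6.47 at 37 °C, with mRNA at 11.1 at both temperatures. The footprint change was 0.15 with a counting SE of 0.178. The TE change was also 0.15, and its SE is unknown because mRNA depth is unknown. The wild-type TE change was -0.74. Among 17 retained mRNAs known to carry upstream open reading frames the median TE change was 0.02. TE was at least 2-fold lower for 2 of the 17, against 1.39% of all retained genes.

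Other low TE changes were those of SER3 (YER081W), a serine synthesis gene, at -2.11, NCP1 (YHR042W), the reductase that serves sterol synthesis, at -1.76, and DPH2 (YKL191W), of diphthamide synthesis, at -1.71. NCP1 footprints went from 9.08 to 7.41 with mRNA at 8.1 and 8.2, and its wild-type TE change was -0.32. The noncoding transcript SRG1 overlaps SER3, so the mRNA value of SER3 may hold its reads. The zinc transporter ZRT2 (-1.48), the proton pump gene PMA2 (-1.44), SAM1 of S-adenosylmethionine synthesis (-1.43) and YPT32, a Rab protein of the Golgi (-1.36), followed. PMA2 is a close relative of PMA1, and SAM1 of SAM2, and their reads may not be separable.

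**Figure D3:**
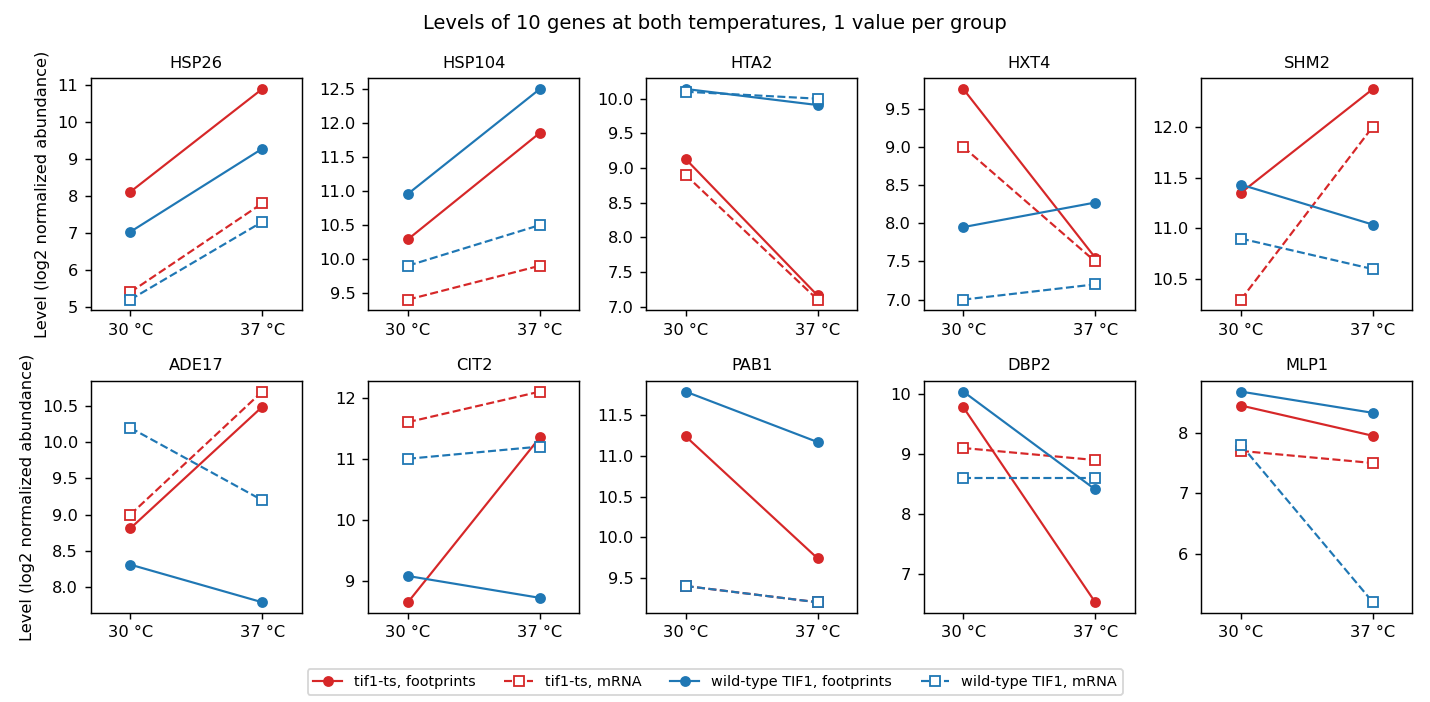
Levels (log2 normalized abundance, the authors' values, 1 per group) of 10 genes at 30 and 37 °C for tif1-ts (red) and wild-type TIF1 (blue), with footprints as filled circles and mRNA as open squares; vertical axes differ between panels. HSP26 and HSP104 move alike in both strains, CIT2 footprints go from 8.65 to 11.35 in tif1-ts only, and MLP1 mRNA goes from 7.8 to 5.2 in the wild type only; the mRNA lines of PAB1 coincide.

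The wild-type change, computed in the same way over the same 2666 genes, was set beside that of tif1-ts. Wild-type mRNA was at least 2-fold higher for 27 genes (1.01%) and lower for 80 (3%), footprints were higher for 53 (1.99%) and lower for 42 (1.58%), and TE was higher for 63 (2.36%) and lower for 37 (1.39%). The mRNA change of tif1-ts exceeded that of the wild type by at least 2-fold for 71 genes (2.66%) and fell short of it by as much for 31 (1.16%). For TE these counts were 30 genes (1.13%) and 77 (2.89%). With 1 value per group, no difference between the strains was tested.

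Low wild-type mRNA was common among the genes with a lower TE change in tif1-ts. The TE change was at least 2-fold lower in tif1-ts than in the wild type for 77 genes. Of these, 39 had wild-type mRNA at least 2-fold lower at 37 °C, against 80 of all 2666 genes (3%). A TE difference contains the wild-type mRNA change, so choosing genes by it favours those with low wild-type mRNA. MYO1 (YHR023W), the myosin of the division ring, went from 8.0 to 5.2 in wild-type mRNA while its footprints went from 8.05 to 8.35. In tif1-ts its mRNA went from 8.3 to 7.7 and its footprints from 8.50 to 7.96. MLP2 (YIL149C) and MLP1 (YKR095W), large proteins of the nuclear basket, had wild-type mRNA changes of -3.2 and -2.6 and tif1-ts changes of -0.1 and -0.2. Their footprint changes lay between -0.49 and 0.17 in both strains. In the wild type, 57 genes had mRNA at least 2-fold lower and footprints within 1.5-fold. Their median gene length was 2913 bases against 1483.5 for the retained genes. In tif1-ts 9 genes were of this kind. What set wild-type mRNA of long genes apart was not tested.

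**Figure D4:**
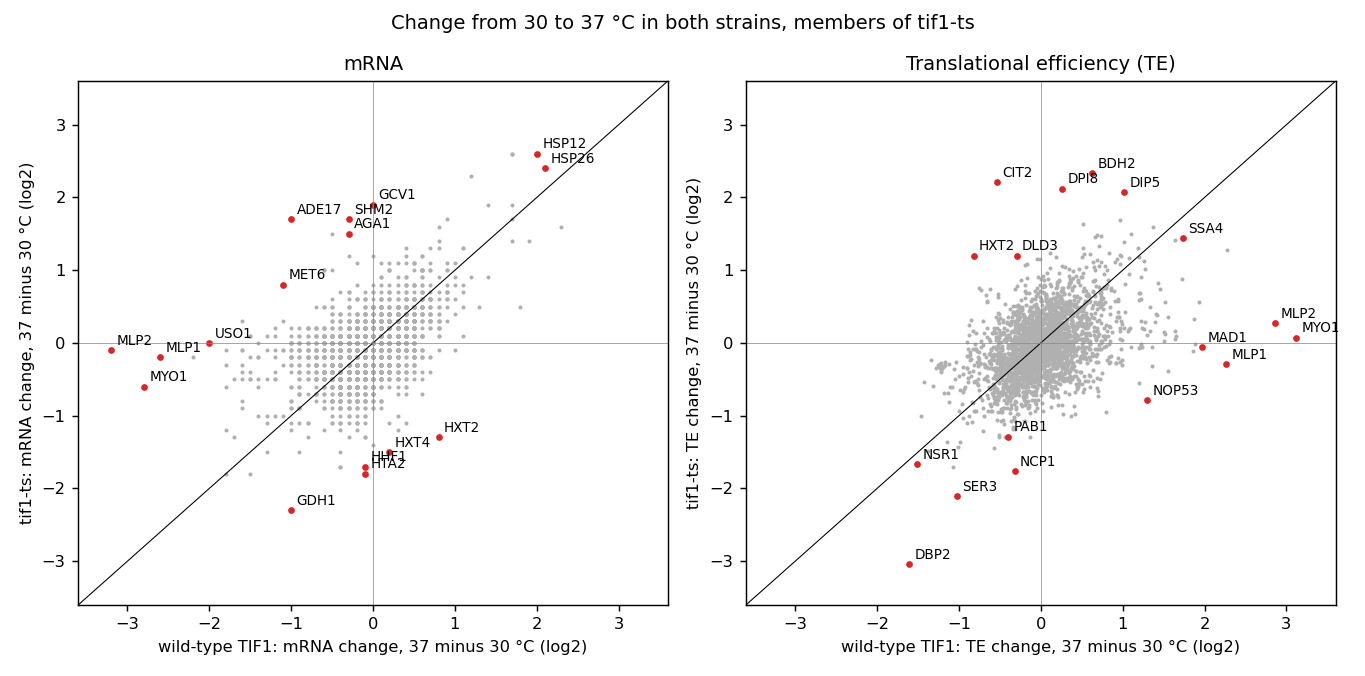
Centred log2 change from 30 to 37 °C in wild-type TIF1 (horizontal) and tif1-ts (vertical) for mRNA (left) and TE (right) over the genes retained in tif1-ts, with the line of equal change; all 2666 genes are shown for mRNA and 2664 for TE, where 2 lie outside the axes. MLP1 and MLP2 are low in wild-type mRNA, at -2.6 and -3.2, and near 0 in tif1-ts, while ADE17, SHM2 and GCV1 are high in tif1-ts mRNA alone.

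Gene length and TE change had opposite relations in the strains. Length here is that of the annotated gene, which can exceed the coding length. With genes split into 5 equal groups by length, the median TE change in tif1-ts was 0.03 in the shortest and -0.14 in the longest, with Spearman's rho of -0.126 across 2664 genes. Wild-type medians were -0.097 and 0.127, with a rho of 0.192. The footprint change had a rho of -0.187 with length in tif1-ts and -0.176 in the wild type, whereas the mRNA change had -0.105 and -0.361. Genes within a library share its depth and normalization, so these values are descriptions across genes. Footprint changes in tif1-ts were also lower for genes of higher mRNA level, with a median of 0.055 in the lowest of 5 such groups and -0.30 in the highest and a rho of -0.239, and the wild-type rho was -0.263.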

How the data were processed

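The authors deposited log2 normalized abundances, 1 table for each temperature and 1 column for each strain and assay, per the file headers. The sources used here do not give how replicates were combined, strand use, treatment of multiply matching reads, filters or annotation. The build sacCer2 and the tools DESeq, TopHat2 2.0.7, Bowtie2 2.0.6 and CASAVA 1.8 are named without roles, per the submitters' processing notes.

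Levels at 30 °C were subtracted from those at 37 °C, joined on systematic name, with values below -5 read as 0 reads. The smallest value above 0 reads was taken as 1 footprint read in each column. In tif1-ts, 69.23% of 52 genes of up to 10 reads at 30 °C and 100% of 42 at 37 °C lay within 0.1 of whole reads. In the wild type the shares were 79.45% of 73 genes and 95.12% of 41. An even spread gives 20%, but genes at the smallest value count as whole by construction, so 20% is too low a reference. The SE from these reads covers counting error only. Symbols and gene lengths came from RefSeq assembly R64 and matched 4919 of 4921 genes. The lengths are not coding lengths throughout, since some, such as 544 bases for COX5B, are not multiples of 3. Since that build differs from the files', no coordinates or sequences are given. Calculations used Python 3.11.15, pandas 2.3.3 and NumPy 2.4.6 and were tested on simulated data.

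Named genes were retained genes with a standard name: the 10 highest and 10 lowest in each quantity, the 3 largest mRNA and TE changes per list, and the 5 highest and 5 lowest differences from the wild type. TIF2, DED1, GCN4, PAB1, HSP104 and HSP26 were always named. Further members of lists, such as TPS1, PGK1, TIF3 and HXT1, were named after their values were seen. The retained genes and lists were chosen with earlier results of these data known. The alternatives were other abundance floors, centres, fold thresholds, list means and levels rebuilt from the authors' differences. Promoter motifs were planned and not run. If the replicates were technical, no value here measures differences between cultures.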

Additional observations from a re-analysis of the deposited data

Results flagged for a closer look

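Genes named for their difference from the wild type were examined for changes of at least 0.5 in opposite directions in the strains, and 4 genes met this. The differences were not tested, since each group has 1 value. ADE17 mRNA changed by 1.7 in tif1-ts and by -1 in the wild type. HXT2 mRNA changed by -1.3 in tif1-ts and by 0.80 in the wild type, from levels of 8.7 and 5.8 at 30 °C, and its TE changed by 1.2 and by -0.82. The TE of CIT2 changed by 2.21 in tif1-ts and by -0.54 in the wild type. The TE of NOP53, a ribosome biogenesis factor, changed by -0.79 in tif1-ts and by 1.29 in the wild type, where its mRNA changed by -1.6.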

How the results depend on the processing

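No paired analysis was possible because the files give 1 value per group, and for the same reason no replicate could be left out. With an abundance floor of 10, in place of 100, 102 mRNAs were at least 2-fold higher and 95 lower, 279 genes had higher footprints and 144 lower, and 189 had higher TE and 74 lower. With a floor of 500 these counts were 14 and 10, 23 and 25, and 10 and 10. A floor on the lower of both temperatures gave 37 mRNAs higher and 35 lower. It gave 63 genes with higher footprints and 83 with lower, and 38 with higher TE and 29 with lower. A 1.5-fold threshold gave 154 mRNAs higher and 249 lower, 221 genes with higher footprints and 405 with lower, and 199 with higher TE and 260 with lower. A 3-fold threshold gave 14 and 7, 32 and 17, and 7 and 6. Centring on the median of the retained genes left 61 genes with lower footprints. Of 68 counts, 41 were within 1.5 times the first value. Counts of differences from the wild type, recomputed only with the authors' differences, with the floor in both strains and with no centring, were among them. Of 498 list medians, 398 moved by at most 0.1, the rounding bound, 98 moved more, and 2 of those at 0.4 or beyond changed sign. Both were cyclin medians at a floor of 500, 0.1 for mRNA and 0.25 for footprints, and both were the values of EGT2 alone. With no centring or with rebuilt levels, no named gene's change moved by more than 0.082; the other settings were not run on single genes. Footprint depth limits changes of genes near the floor, and mRNA rounding limits calls near 2-fold.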

Other observations

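Genes of metal and sulfur metabolism also changed in tif1-ts. CUP1-1 (YHR053C) of copper detoxification changed by 2.6 in mRNA and by 2.33 in footprints, with 1.7 and 0.96 in the wild type. Its entry is identical to that of its copy CUP1-2, and annotated transcripts overlap it, so it is uncertain. The copper transporter gene CTR1 had mRNA changes of -1.8 in both strains, and the reductase gene FRE1 had -1.5 in tif1-ts and -1.3 in the wild type. HMX1, heme oxygenase, had an mRNA change of 1.7 in tif1-ts. ZRT1, the high-affinity zinc transporter, had footprint changes of -2.20 in tif1-ts and -3.26 in the wild type. All 13 measured genes of sulfur and methionine metabolism had footprints below the median gene, with medians of -0.33 in tif1-ts and -0.675 in the wild type. Of all retained genes, 61.3% had tif1-ts footprints below it. MET6, methionine synthase, had mRNA changes of 0.8 in tif1-ts and -1.1 in the wild type.

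Genes of mating had more mRNA in tif1-ts. Of 17 measured, 4 were at least 2-fold higher and none that much lower, against 2.1% and 1.99% of all retained genes. The list median was 0.50 in tif1-ts and -0.10 in the wild type. AGA1 (YNR044W), an anchor of the agglutinin, went from 6.2 to 7.7 in mRNA and from 7.52 to 9.27 in footprints, and from 6.9 to 6.6 in wild-type mRNA. The cell wall genes, 42 in number, were divided, with 3 mRNAs at least 2-fold higher and 3 lower. The shares among all retained genes were 2.1% and 1.99%. CWP1, a mannoprotein, had a footprint change of 1.57, and SRL1, another, one of -2.18.

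The genes with no standard name fall outside the rule for named genes. After their values were seen, YPR108W-A and YOL013W-A were singled out, since they are the 2 genes beyond the axes of the TE plot. YPR108W-A footprints were 11.18 and 10.61 in tif1-ts and 11.79 and 4.33 in the wild type at 30 and 37 °C, and those of YOL013W-A were 14.41 and 14.03, and 14.88 and 8.52.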
